A study of Mus musculus with 4 samples.

Results

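The interleukin 1 (IL-1) family genes described here are 10 rows of the count matrices, found by gene symbol among the 32285 genes that all 4 libraries list: the ligand genes Il1b, Il1a and Il18, the antagonist gene Il1rn, and the receptor genes Il1r1, Il1r2, Il1rap, Il18r1, Il18rap and Il1rl1. The genes were chosen by name with earlier results of these libraries known, so their values are given as a description. The libraries come from 20-week-old male C57BL/6J mice that received prednisolone, a synthetic glucocorticoid (GC), at 6.25 mg/kg/d or no drug, and that were sampled at week 2. Each arm gave 1 library from fracture callus and 1 from trabecular bone, called the control and GC libraries of the callus and of trabecular bone below. The labels give slow-release prednisolone pellets against placebo pellets under the skin for every library, whereas the study's methods describe daily injections for the fracture model. How many mice went into a library was not given in the sources used here, and the cells were freed by enzyme digestion of crushed bone together with flushed marrow.

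IL-1β and IL-1α, the products of Il1b and Il1a, are inflammatory cytokines that bind the type 1 receptor Il1r1, which signals only after it recruits the accessory chain Il1rap. Il1rn encodes a soluble antagonist that occupies the receptor without signaling, and Il1r2 encodes a decoy receptor that binds IL-1 but lacks the signaling domain. IL-18 signals through Il18r1 with Il18rap, and Il1rl1, also called ST2, is the receptor for IL-33. In healing bone, myeloid cells are a known source of IL-1, and glucocorticoids are known to lower the transcription of many inflammatory cytokine genes.

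In the GRCm38 build of the mouse genome, 5 of the receptor genes lie side by side on chromosome 1 within 477.627 kb, in the order Il1r2 (chr1:40074079-40125231), Il1r1 (chr1:40225080-40317257), Il1rl1 (chr1:40429570-40465415), Il18r1 (chr1:40465552-40500854) and Il18rap (chr1:40515362-40551705), all on the plus strand. Il1rl1 and Il18r1 are 136 bases apart. Il1b (chr2:129364570-129371139) and Il1a (chr2:129299610-129309972) are neighbors on the minus strand of chromosome 2, with 54597 bases between them, and Il1rn (chr2:24336853-24351494) lies on the same chromosome far from both. Il18 is on chromosome 9 and Il1rap on chromosome 16.

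The 250 bases before the first RefSeq start sites of Il1b, Il1a and Il1rn are shown because these genes encode the agonists and the antagonist of the same receptor, and because the GC callus library had less Il1b and more Il1rn than its control. Capitals mark matches, on either strand, to the letters searched: a TATA box (TATAAA), an AP-1 motif (TGANTCA), a C/EBP motif (TTGCNNAA), and the NF-kB and glucocorticoid response element consensus motifs.
Il1b, GRCm38.p6 chr2:129371140-129371389, minus strand: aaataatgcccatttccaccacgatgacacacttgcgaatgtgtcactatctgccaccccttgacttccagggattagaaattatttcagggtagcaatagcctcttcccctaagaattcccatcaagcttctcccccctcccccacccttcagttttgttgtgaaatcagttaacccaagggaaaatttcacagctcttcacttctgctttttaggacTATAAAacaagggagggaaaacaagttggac
Il1a, GRCm38.p6 chr2:129309973-129310222, minus strand: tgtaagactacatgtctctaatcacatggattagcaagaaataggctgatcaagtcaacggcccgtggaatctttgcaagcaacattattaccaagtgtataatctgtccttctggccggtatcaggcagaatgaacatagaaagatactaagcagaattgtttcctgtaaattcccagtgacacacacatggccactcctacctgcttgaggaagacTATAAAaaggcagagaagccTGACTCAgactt
Il1rn, GRCm38.p6 chr2:24336610-24336859, plus strand: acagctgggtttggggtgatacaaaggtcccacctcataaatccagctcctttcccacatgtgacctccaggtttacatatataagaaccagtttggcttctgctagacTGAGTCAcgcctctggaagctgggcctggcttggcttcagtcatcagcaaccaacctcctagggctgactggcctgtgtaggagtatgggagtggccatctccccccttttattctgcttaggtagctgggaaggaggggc
The TATA letters began 31 bases before the start of Il1b and 32 bases before that of Il1a, and 13% of 27025 mouse promoters of this length held them. An AP-1 match stood 141 bases before the first Il1rn start and 12 bases before the Il1a start, with 6.87% of all promoters holding one. The windows of later Il1rn starts, which begin at chr2:24345041 and chr2:24345121, held no AP-1 match. Neither the NF-kB letters nor those of the glucocorticoid response element, which 0.337% and 0.381% of all promoters held, were found in the windows of any of the 10 genes. This says nothing of more distant sequence, or of sites in these windows that depart from the letters searched.

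After cell calling and filtering, 6714 control and 6890 GC cells were kept from the callus, and 3832 control and 4604 GC cells from trabecular bone, with a median of 3319 to 6333 unique molecular identifiers (UMIs) per cell. The GC callus matrix listed only barcodes of at least 500 UMIs, whereas the other libraries held all droplets and were called here. Pairs of libraries shared 6 to 11 cell barcodes. Cells were clustered within each tissue without the 10 genes, and clusters were named from marker genes. Mature neutrophils made up 23.4% of control callus and 17.6% of GC callus cells, and 42% and 44.2% of control and GC trabecular bone cells. Levels below are in CPM, the UMIs of a gene scaled to all UMIs of its cell class, with exact Poisson 95% intervals in brackets. As 3′ tag counting gives 1 UMI per molecule, gene length does not enter CPM. With 1 library per group there is no replicate check and no test, and every interval covers counting error only.

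**Figure D1:**
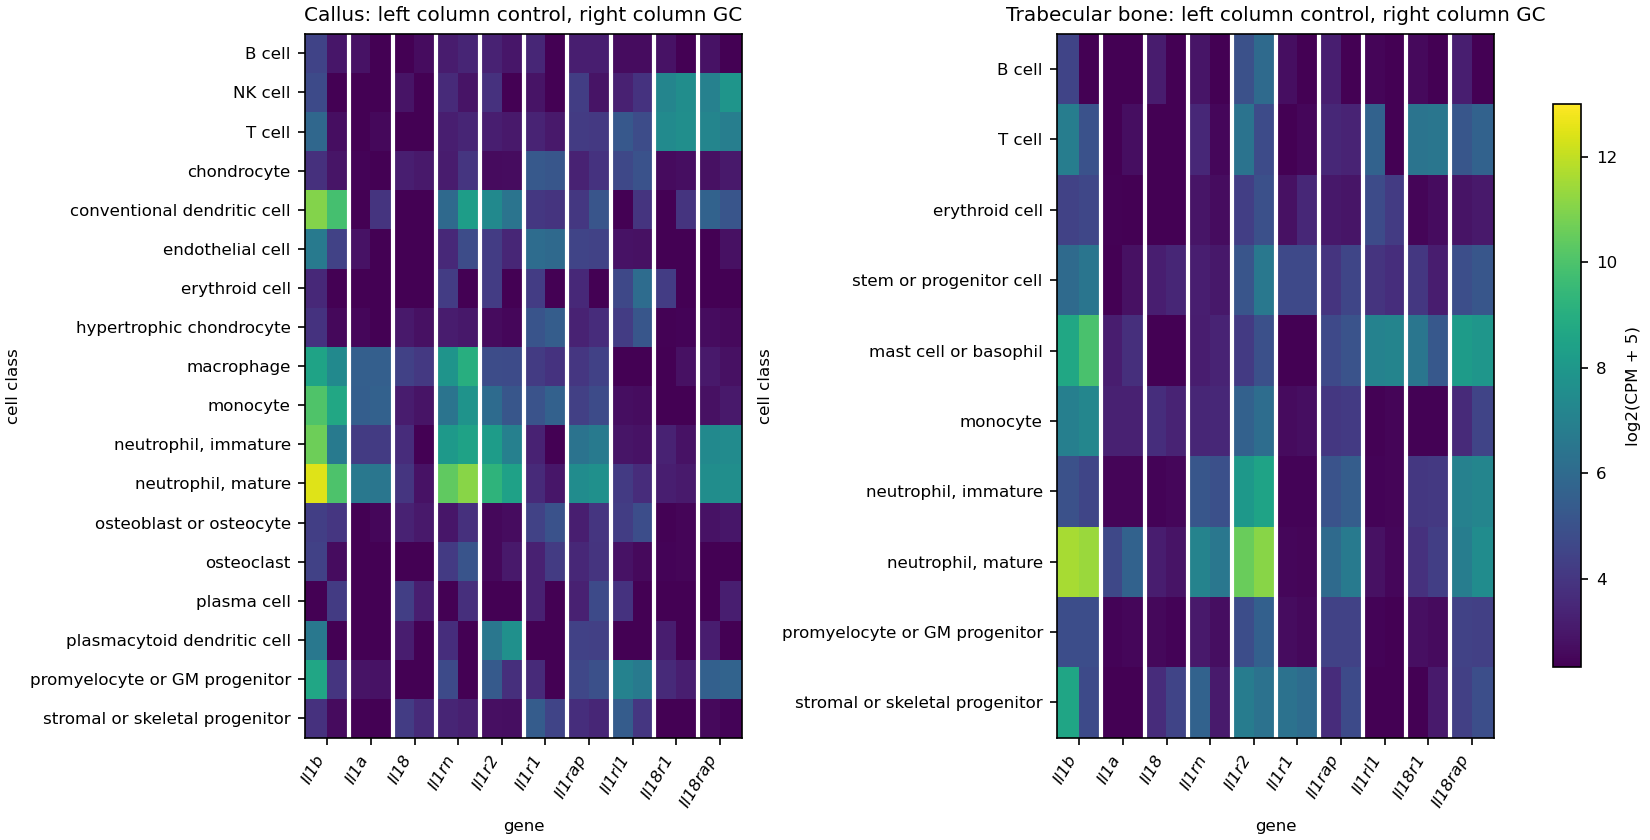
Levels of the 10 genes, as log2(CPM + 5), in every named cell class of at least 15 cells in callus (left panel) and trabecular bone (right panel). Each gene has a column for control and a column for GC; Il1b was brightest in mature neutrophils of every library, and Il18 stayed dark throughout.

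Il1b was the most unevenly distributed ligand gene and was highest in mature neutrophils in every library, although in GC callus the interval of dendritic cells overlapped with theirs. In control callus, mature neutrophils had an Il1b level of 5658 CPM [5556, 5762], which was 68.8% of all Il1b UMIs in cells of that library. Conventional dendritic cells followed with 2040 CPM [1832, 2266], then immature neutrophils with 1578 CPM [1455, 1710], and their intervals did not overlap those of their neighbors in the order. The monocyte class stood at 1049 CPM, and macrophages at 359 CPM [314, 410] overlapped with cluster 35 at 390 CPM [333, 455], in which promyelocyte genes and mast cell or basophil genes both led. All other named callus classes were below 100 CPM in Il1b. In control trabecular bone, Il1b in mature neutrophils was 3097 CPM [3059, 3136], 95.1% of the Il1b UMIs, against 404 CPM [328, 493] in mast cells or basophils, 118 CPM [108, 129] in monocytes and 26.6 CPM [23.5, 30] in immature neutrophils. The 383 CPM of trabecular stromal cells rested on 18 cells, 1 of which held 98% of the UMIs.

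In callus, the Il1b level of mature neutrophils was 5658 CPM [5556, 5762] in the control and 1024 CPM [972, 1078] in the GC library. The GC library was lower and the intervals lay far apart, at a log2 ratio of -2.46 and a fold of 0.181 [0.171, 0.191]. A log2 ratio of at least 1 or at most -1, computed with 5 CPM added, is called past the fold here, and 6 of the 10 genes had the required 50 UMIs in this class. Of these 6, Il1b was past the fold downward and none was past it upward, beside 3.54% of 4834 genes lower and 4.45% higher across the class. With every cell thinned to 1000 UMIs, 81.5% [79.3, 83.6] of 1284 control cells and 46.9% [43.5, 50.4] of 848 GC cells had an Il1b UMI, with 285 and 365 shallower cells left out (exact binomial intervals). In T cells, which should lack it, the shares were 1.77% of 282 control and 0% [0, 0.976] of 376 GC cells. Without thinning, at medians of 1270 and 1139 UMIs per cell, 81.9% and 47.8% of mature neutrophils had an Il1b UMI. Among cells with any Il1b UMI, the median was 7 UMIs in control and 2 in GC.

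The clusters that held the callus mature neutrophils differed between libraries. Cluster 0 had 597 control and 1146 GC cells, and cluster 4 had 972 control and 67 GC cells. Within cluster 0, Il1b was 3630 CPM in control and 1041 CPM in GC (log2 ratio -1.80). Within cluster 4, it was 6886 CPM in control and 741 CPM in GC (log2 ratio -3.21), where 4 of 6 measured genes were past the fold downward beside 13.7% of all genes. Besides Il1b and Il1r2, these were among Il1a, Il1rap and Il18rap, which are given below for the class as a whole. The GC level of Il1b was thus the lower in each cluster taken alone. Immature neutrophils, which carry the granule genes Ngp, Camp and Ltf, had the lowest fold of the neutrophil and monocyte groups: Il1b was 1578 CPM in 133 control cells and 97.1 CPM [70.8, 130] in 175 GC cells, a fold of 0.0615 [0.0444, 0.0834]. Here 2 of the 5 genes with 50 UMIs were past the fold downward, beside 4.06% of all genes. The mature neutrophil markers Retnlg, Mmp8 and Hdc were also among the leading genes of this callus class.

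**Figure D2:**
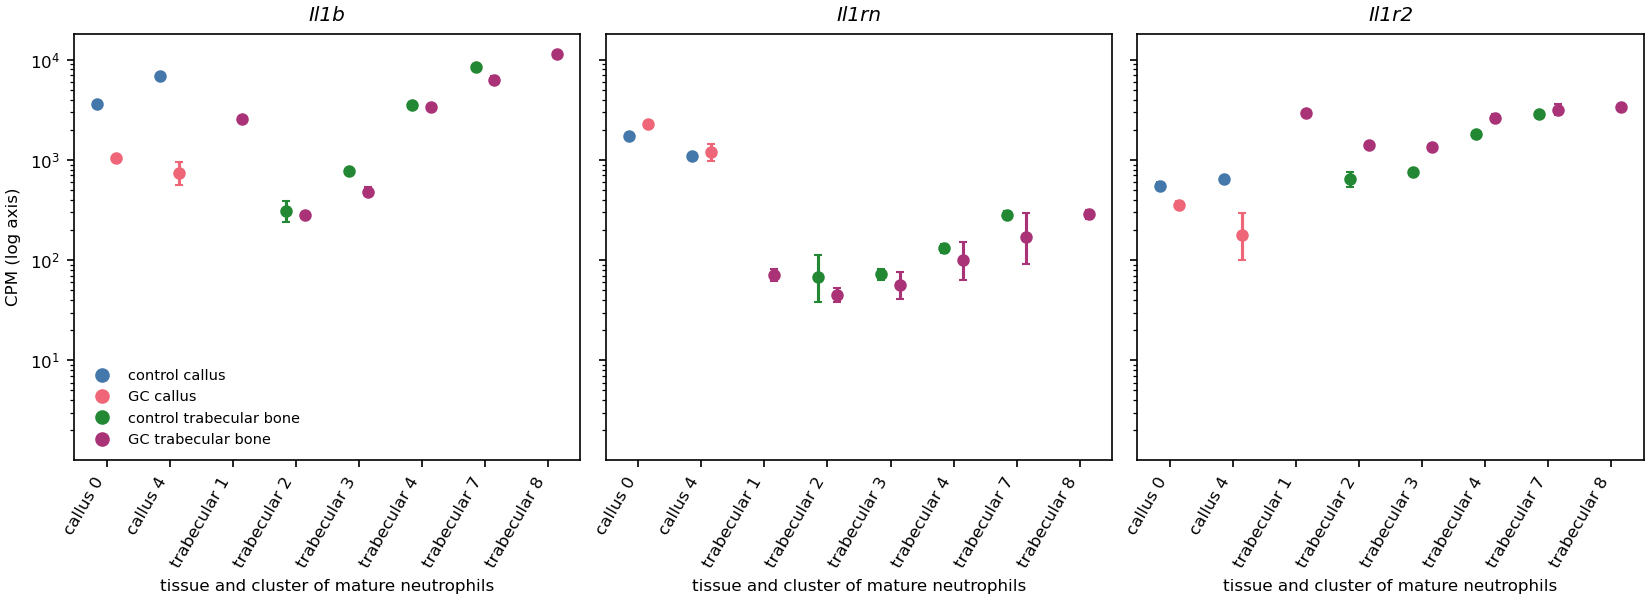
Il1b, Il1rn and Il1r2 in each cluster of mature neutrophils with at least 15 cells of a library, as CPM on a log axis with exact Poisson 95% intervals (bars). In callus clusters 0 and 4 the GC points of Il1b lie below the control points; trabecular clusters 1 and 8 have only GC points.

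Il1b was also lower in the GC library in the other myeloid groups of the callus. The monocyte class did not allow a comparison as a whole, so its clusters are given by number. The leading genes of cluster 6 held no monocyte marker but included Clec4d and Chil3, listed as markers of mature and immature neutrophils. In that cluster, 11 monocyte markers and 6 mature neutrophil markers were raised, so its name is less sure. Cluster 6, the larger, had an Il1b level of 1082 CPM in 492 control cells and 457 CPM in 459 GC cells, a fold of 0.422 [0.389, 0.457]. Cluster 14, with the lipid genes Cd36 and Apoe among its leading genes, had 805 CPM in control and 218 CPM in GC, a fold of 0.27 [0.203, 0.356]. Macrophages, marked by the complement genes C1qa, C1qb and C1qc, had 359 CPM in control and 165 CPM [131, 205] in GC, a fold of 0.459 [0.352, 0.593]. Of the 88 GC macrophages, 1 held 45.8% of the Il1b UMIs, and without that cell the GC level was 90.2 CPM. The macrophage log2 ratio of -1.10 was -0.91 as a mean per cell and -0.95 thinned, short of the fold. Conventional dendritic cells, with 34 and 23 cells, had 2040 CPM in control and 913 CPM [735, 1121] in GC. Every one of these intervals lay apart from its control interval. Il1b was past the fold downward in each of these 4 groups, beside 2.33% of genes in cluster 6, 2.92% in cluster 14, 2.07% in macrophages and 7.65% in dendritic cells. The dendritic cell log2 ratio ranged from -1.30 to -0.83 over 7 alternatives, the latter short of the fold. Cluster 35 had 390 CPM [333, 455] in 25 control cells and 10.5 CPM [3.4, 24.4] in 39 GC cells. Over all callus cells the level was 210 CPM in control and 50.1 CPM in GC, beside 0.297% of genes past the fold downward.

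Il1b counts in cells that should lack the gene also differed between the callus libraries. T cells had 55.1 CPM in control, where 1 cell held 48% of the UMIs, and 1.62 CPM in GC. B cells had 17 CPM in control and 2.94 CPM in GC, and chondrocytes 9.09 and 2.66 CPM. The empty droplets of control callus had 187 CPM of Il1b at a mean of 21.1 UMIs each, and with that profile subtracted the mature neutrophil level was 5747 CPM. The subtraction left 15.3 CPM in control callus B cells and 54.2 CPM in T cells. Most counts of cells that should lack the gene thus remained, and the part of background was not tested. The GC callus matrix has no empty droplets, so the same subtraction could not be made there. In control callus, 2 mature neutrophils were above the UMI cutoff of 7535, and the others were called by their difference from the empty droplets.

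In trabecular bone, Il1b in mature neutrophils was 3097 CPM [3059, 3136] in the control and 2679 CPM [2645, 2714] in the GC library. The intervals did not overlap, and the GC level was lower by a fold of 0.865 [0.85, 0.881], against a median log2 ratio over all genes of 0.27 in this class. The log2 ratio of Il1b was -0.21 as scaled to total UMIs and -0.57 as scaled to the median ratio, a scaling under which 101 genes were past the fold upward and 117 downward in place of 231 and 52. The GC cells lay mostly in clusters 1, 2 and 8 and the control cells in clusters 3, 4 and 7. Cluster 8 had 415 GC and 2 control cells, an Il1b level of 11438 CPM, and Il1b, Cxcl2 and Cd14 among its leading genes. Cluster 7, also high in Il1b, had 21 GC and 403 control cells. Without cluster 8 the log2 ratio of Il1b was -1.25, a value that leaves out GC cells of high Il1b and keeps the control cells of cluster 7. Within the 4 clusters with at least 15 cells in both libraries, Il1b in control and GC was 310 and 282 CPM in cluster 2, 768 and 480 CPM in cluster 3, 3559 and 3358 CPM in cluster 4, and 8384 and 6260 CPM in cluster 7. The GC value was the lower in each, with overlapping intervals in clusters 2 and 4.

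Il1b was the higher in GC in a rare trabecular class. Mast cells or basophils, marked by Mcpt8, Prss34 and Cpa3, had 404 CPM [328, 493] in 29 control cells and 984 CPM [884, 1093] in 39 GC cells, a fold of 2.44 [1.94, 3.08]. Il1b was the 1 of 3 genes past the fold upward there, beside 3.08% of all genes. Its log2 ratio ranged from 0.84 to 1.87 over 13 alternatives, the former short of the fold. Cluster 34 of this class, with Ccl3, Ccl4 and Il6 among its leading genes, held 8 control and 16 GC cells. Monocytes had 118 CPM [108, 129] in control and 146 CPM [135, 158] in GC, but fewer of them had an Il1b UMI in GC, 95 of 265 cells against 112 of 267, and 1 GC cell held 14% of the UMIs, without which the GC level was 126 CPM. The order of the libraries thus depended on the measure in this class. Immature neutrophils had 26.6 CPM in control and 18.5 CPM [16, 21.3] in GC, both near the 16.4 to 19 CPM of erythroid cells.

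Il1a, the other agonist, was low. In control callus mature neutrophils had 91.8 CPM [79.2, 106], macrophages 42.1 CPM [27.5, 61.7] and monocytes 41.1 CPM [33.6, 49.7], and the remaining classes were below 14 CPM. In callus mature neutrophils, Il1a was 91.8 CPM in control and 86.2 CPM [71.6, 103] in GC. The intervals overlapped, and the fold of 0.94 [0.742, 1.19] lay above the 0.181 of Il1b in the same cells. These values pool the clusters of the class, whose cell numbers differed between the libraries, and do not show the ratio within each. In monocyte cluster 6 Il1a was 44.5 CPM in control and 52.4 CPM in GC, a fold of 1.18 [0.88, 1.57]. Il1a in trabecular mature neutrophils was 20 CPM [17, 23.3] in control and 45.6 CPM [41.2, 50.4] in GC. This was the 1 gene of the 8 measured that was past the fold upward, beside 3.24% of all genes, and none was past it downward, beside 0.73%. Of the 393 GC UMIs, 294 were in cluster 8, and without that cluster the log2 ratio of Il1a was -0.45 in place of 1.02.

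Il18 was low in every class. Its highest levels were 17.6 CPM [5.71, 41] in 46 GC trabecular stromal cells, 16.5 CPM [4.51, 42.4] in 31 control trabecular plasmacytoid dendritic cells and 16.2 CPM [7.76, 29.8] in control callus macrophages, with intervals that overlapped. All the UMIs of these plasmacytoid cells came from 1 cell, and 60% of those of the stromal cells also came from 1 cell. Callus chondrocytes held 53.2% of the control callus Il18 UMIs at 4.33 CPM, with a UMI in 164 of 1693 cells. In callus stromal cells Il18 was 13.8 CPM [10.4, 17.9] in control and 7.01 CPM [4.16, 11.1] in GC, from 55 and 18 UMIs. The transcript was not detected in callus T cells of either library, where the limit of 3 counts allows no more than 3.31 CPM in control and 2.43 CPM in GC.

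Il1rn, which encodes the receptor antagonist, was highest in callus mature neutrophils and was higher in the GC callus library where Il1b was lower. In callus mature neutrophils Il1rn was 1325 CPM [1276, 1375] in control and 2200 CPM [2123, 2279] in GC. The GC level was the higher, with separate intervals, at a fold of 1.66 [1.58, 1.75] that stayed below the fold threshold. Within cluster 0 it was 1720 CPM in control and 2263 CPM in GC, and within cluster 4 it was 1086 CPM and 1195 CPM, where the fold of 1.1 [0.889, 1.35] included no difference. Immature neutrophils had 260 CPM [212, 317] in control and 352 CPM [300, 410] in GC, with overlapping intervals.

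Il1rn was also the higher in GC in the mononuclear phagocytes of the callus. In monocyte cluster 6, Il1rn was 91.2 CPM in control and 243 CPM in GC, a fold of 2.66 [2.25, 3.15]. In macrophages it was 227 CPM [191, 268] in control and 513 CPM [452, 579] in GC, a fold of 2.26 [1.83, 2.8]. Il1rn was the only measured gene of the 10 past the fold upward in each of these 2 groups, beside 2.35% of genes in cluster 6 and 2.69% in macrophages. Conventional dendritic cells had 58.5 CPM [28, 107] in control and 301 CPM [203, 430] in GC, but from 40 UMIs in all, which is below the minimum for a ratio. A higher GC value was not limited to phagocytes. Without the cell richest in Il1rn, chondrocytes had 3.54 CPM in control and 10.2 CPM in GC, and osteoclasts 10.1 and 26.1 CPM. Hypertrophic chondrocytes, at 3.61 and 2.8 CPM, and stromal cells, at 4 and 3.55 CPM, went the other way. After thinning, 0.42% of control and 2.96% of GC chondrocytes had an Il1rn UMI. Empty droplets of control callus had 38 CPM of Il1rn, and the part of background was not tested.

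**Figure D3:**
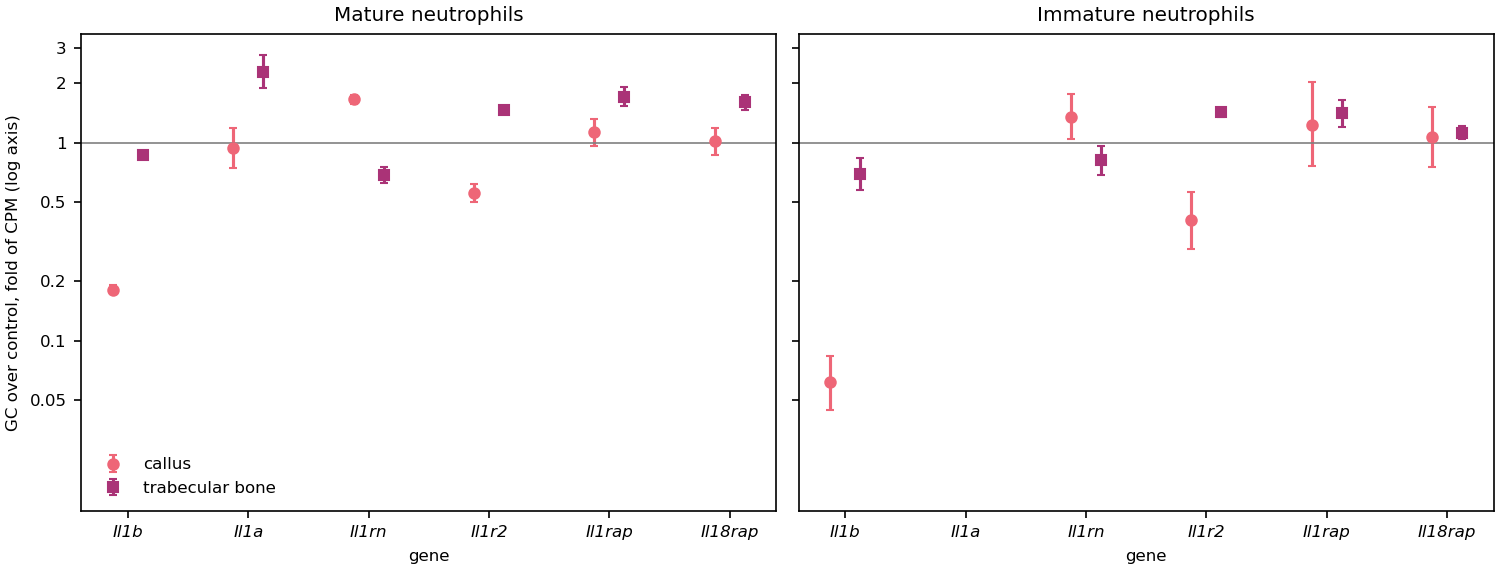
Fold of GC over control in mature (left) and immature (right) neutrophils for the 6 genes with enough UMIs, on a log axis, with exact 95% intervals of the count ratio (bars) and a line at no difference. Il1b lies lowest in callus, and Il1rn and Il1r2 lie on opposite sides of the line in callus (circles) and trabecular bone (squares).

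Il1rn in trabecular mature neutrophils was 130 CPM [123, 139] in control and 89.9 CPM [83.6, 96.4] in GC. The GC level was the lower, at a fold of 0.689 [0.627, 0.757], and the log2 ratio was -0.51, or -0.86 as scaled to the median ratio. In each of the 4 clusters found in both libraries the GC value was below the control value, from 44.7 against 68.4 CPM in cluster 2 to 171 against 282 CPM in cluster 7, although each of these fold intervals included 1. In immature neutrophils Il1rn was 31 CPM [27.6, 34.6] in control and 25.2 CPM [22.3, 28.4] in GC.

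The agonist and the antagonist were also counted in the same cells. At 1000 UMIs per cell, 41.3% of control callus mature neutrophils had both Il1b and Il1rn UMIs, 40.3% had Il1b alone, 11.3% had Il1rn alone and 7.17% had neither. In GC callus, 28.7% had both, 18.3% had Il1b alone, 32.5% had Il1rn alone and 20.5% had neither. The shares with both were near the products of the single shares, 42.9% in control and 28.7% in GC, which is what unrelated detection of the 2 genes would give. The Il1b-only share was the smaller and the Il1rn-only share the larger in the GC library. Summed over the class, there were 0.234 Il1rn UMIs per Il1b UMI in control callus and 2.15 in GC callus. The same ratio was 0.165 and 3.62 in callus immature neutrophils, and 0.631 and 3.11 in callus macrophages. In trabecular mature neutrophils, where 59.4% of control and 46.8% of GC cells had Il1b alone, it was 0.0421 and 0.0335.

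**Figure D4:**
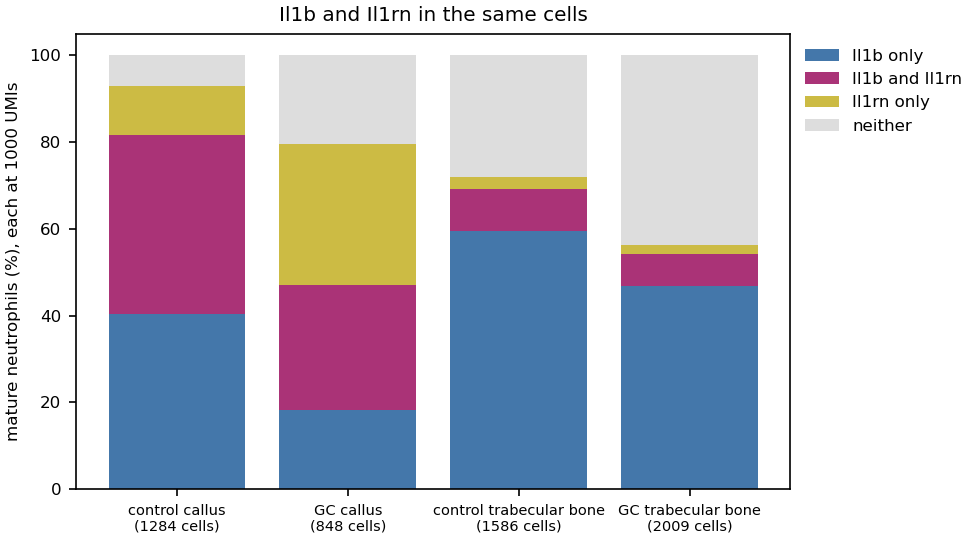
Share of mature neutrophils, in percent, with UMIs of Il1b only, of both genes, of Il1rn only or of neither, after each cell was thinned to 1000 UMIs; the number of cells stands under each bar. The Il1rn-only part was 11.3% in control callus and 32.5% in GC callus, and below 3% in both trabecular libraries.

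Il1r2, the decoy receptor gene, was highest in mature neutrophils among the named classes of every library, and its level there was the highest of any receptor gene among the 10. In control trabecular bone Il1r2 was 1507 CPM [1480, 1534] in mature neutrophils, 252 CPM [242, 262] in immature neutrophils and 44.3 CPM [38.3, 51] in monocytes, against 550 CPM in the empty droplets. At a mean of 10.3 UMIs per empty droplet, subtracting that profile left 43.9 CPM in monocytes. Lymphocytes lay on both sides of the monocytes, with 78.2 CPM [50.6, 115] in T cells, where 1 cell held 68% of the UMIs, and 26.3 CPM in B cells. After the subtraction these were 77.4 and 25.4 CPM. The monocyte level was thus above that of B cells but was not told apart from that of T cells, as their intervals overlapped. The 107 CPM of stromal cells and 78.6 CPM of plasmacytoid dendritic cells rested on 14 and 19 UMIs. In GC trabecular bone the mature neutrophil level was 2210 CPM [2179, 2242], higher than the control at a fold of 1.47 [1.43, 1.5]. The log2 ratio was 0.55 against the class median of 0.27 and 0.19 as scaled to the median ratio. After thinning, 67.5% of 1586 control and 81.7% of 2009 GC cells had an Il1r2 UMI, against 4.17% and 3.11% of T cells, and without thinning 93.8% and 98.6% of mature neutrophils had one. In clusters 2, 3 and 4 Il1r2 in control and GC was 643 and 1409 CPM, 755 and 1342 CPM, and 1822 and 2650 CPM, with separate intervals in each. In cluster 7 it was 2882 and 3163 CPM, with a fold interval of 0.959 to 1.25. Over the 4 shared clusters pooled the log2 ratio was -0.019, with the GC cells mostly in cluster 2 and the control cells in clusters 3, 4 and 7. Immature neutrophils had a fold of 1.42 [1.35, 1.49], from 252 to 357 CPM [346, 369].

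In callus the order was the opposite. Il1r2 in mature neutrophils was 611 CPM [578, 646] in control and 341 CPM [312, 373] in GC, a fold of 0.558 [0.502, 0.621]. It was the lower in GC within cluster 0, at 547 and 352 CPM, and within cluster 4, at 651 and 179 CPM. Immature neutrophils had 297 CPM [245, 357] in control and 121 CPM [91.3, 157] in GC, a fold of 0.407 [0.29, 0.565], which was past the fold. Monocyte cluster 6 had 65.6 and 33.1 CPM. Conventional dendritic cells had 164 CPM [109, 237] in 34 control cells and 80.2 CPM [34.6, 158] in 23 GC cells, with overlapping intervals. Plasmacytoid dendritic cells had 88.6 CPM [55.5, 134] in 52 control cells and 199 CPM [106, 340] in 17 GC cells, which also overlapped. In GC callus the interval of the plasmacytoid cells, from 13 UMIs, reached that of mature neutrophils and included the level of immature neutrophils.

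Il1r1, the signaling receptor, had its highest callus level in endothelial cells and was also found in skeletal cells and callus monocytes, whereas neutrophils had little of it. In control callus the order of Il1r1 was endothelial cells with 63.1 CPM [42, 91.3], stromal or skeletal progenitor cells with 37.8 CPM [32, 44.3], chondrocytes with 34.1 CPM [32.4, 35.8], hypertrophic chondrocytes with 28.8 CPM [26, 31.7], and monocytes with 28.7 CPM [22.5, 36]. Endothelial and stromal intervals overlapped, as did stromal and chondrocyte intervals, whereas those of chondrocytes and hypertrophic chondrocytes did not. The monocyte UMIs were spread over 61 of 604 cells and nearly all in cluster 6. Mature neutrophils had 7.24 CPM [4.05, 11.9] in control callus, where T cells had 5.51 CPM and B cells 5.92 CPM, and 2.83 CPM in GC callus. They had 0.617 and 0.464 CPM in the trabecular libraries. The empty droplets of control callus had 35.8 CPM, above some of the skeletal classes, and at 21.1 UMIs per droplet their subtraction left 6.78 CPM in mature neutrophils and 28.6 CPM in monocytes. It also left 5.3 CPM in T cells and 5.62 CPM in B cells. Chondrocytes held 65.7% of the control callus Il1r1 UMIs. In trabecular bone, Il1r1 was found in the stromal class, with 76.7 CPM [36.8, 141] in 18 control and 63.3 CPM [37.5, 100] in 46 GC cells, and in hematopoietic stem or progenitor cells, with 20.4 and 20.7 CPM. That stromal class, cluster 22, had 15 stromal and 9 endothelial markers raised, and no trabecular cluster was named endothelial. Its Il1r1 can therefore not be assigned to stromal cells alone.

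The callus chondrocytes lay in different clusters in the 2 libraries: cluster 2, with the cartilage genes Col2a1 and Matn3 among its leading genes, had 973 control and 353 GC cells, cluster 3, with Ibsp, Col1a1 and Fn1, had 86 and 1184, and cluster 7, with Ibsp and Col10a1, had 541 and 335. Over the class, chondrocytes had 34.1 CPM of Il1r1 in control and 31.6 CPM [29.4, 33.9] in GC, a fold of 0.927 [0.85, 1.01]. By cluster, Il1r1 in control and GC was 40.5 CPM [38.2, 43] and 33.8 CPM [30.1, 37.8] in cluster 2, 38.6 and 36.9 CPM in cluster 3, and 20.8 and 23.5 CPM in cluster 7. The intervals were separate in cluster 2, with GC the lower, and overlapped in the others. Hypertrophic chondrocytes had 28.8 CPM in control and 39.3 CPM [35.9, 42.8] in GC, a log2 ratio of 0.39 that was 0.023 with each library clustered alone. Osteoblasts or osteocytes had 16.7 CPM [12.9, 21.3] in control and 27.1 CPM [22.9, 32] in GC, a direction that turned with cells thinned to 1000 UMIs. Cluster 17 held 103 of the 336 GC and 1 of the 176 control osteoblasts or osteocytes, and in cluster 9, which held the rest, the intervals of 16.7 CPM [12.9, 21.3] and 23 CPM [18.5, 28.3] overlapped. In cluster 17, 8 osteoblast or osteocyte markers and 11 endothelial markers were raised, so its name is less sure. In monocyte cluster 6, Il1r1 was 31.7 CPM [24.8, 39.9] in control and 52.4 CPM [42.4, 64.1] in GC, a fold of 1.65 [1.2, 2.28]. Stromal or skeletal progenitor cells stood on the other side, with 37.8 CPM [32, 44.3] in control and 17.9 CPM [13.1, 23.9] in GC, a fold of 0.475 [0.334, 0.664]. The intervals of the class levels did not overlap in hypertrophic chondrocytes, osteoblasts or osteocytes, cluster 6 and stromal cells, and none of the log2 ratios of Il1r1 given here was past the fold. Chondrocyte depth differed, with a median of 26080 UMIs per cell in control and 6048 in GC, and its part in these values was not tested.

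Il1rap, the shared accessory chain, was highest in neutrophils, where Il1r1 was low. In control callus it was 180 CPM [162, 199] in mature and 78.9 CPM [53.2, 113] in immature neutrophils, against 18 CPM in endothelial cells, 8 CPM in stromal cells and 5.28 CPM in chondrocytes. Pooled over clusters, the callus mature neutrophil level was 203 CPM [180, 228] in GC, and the intervals overlapped, with a fold of 1.13 [0.965, 1.32]. Il1rap in trabecular mature neutrophils was 58.9 CPM [53.7, 64.4] in control and 100 CPM [93.8, 107] in GC, a fold of 1.71 [1.52, 1.91]. The higher GC value was seen in clusters 3, 4 and 7, at 43.7 and 98.9 CPM, 55.3 and 226 CPM, and 107 and 250 CPM, and in cluster 2, at 41 and 57.6 CPM, the intervals overlapped. Callus chondrocytes had 5.28 CPM in control and 9.74 CPM in GC, a fold of 1.84 [1.54, 2.21], beside 8.43 CPM in the empty droplets of control callus. By cluster these were 4.43 and 5.97 CPM in cluster 2, 5.35 CPM [2.44, 10.1] and 13.2 CPM [10.8, 16.1] in cluster 3, and 7.08 and 10.7 CPM in cluster 7, with separate intervals in cluster 3 alone, which held most GC and few control cells.

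The IL-18 receptor chains were distributed unequally. Il18r1, the binding chain, was highest in lymphocytes in control callus: T cells had 166 CPM [141, 195] and NK cells 141 CPM [107, 181], with overlapping intervals, and no other class was above 14 CPM. In control trabecular bone it was not limited to lymphocytes, as mast cells or basophils had 86.6 CPM [53.6, 132] and T cells 81.3 CPM [53.1, 119]. Il18rap, the accessory chain, was present in the same cells but was as high in neutrophils, with 184 CPM [166, 203] in mature and 160 CPM [123, 206] in immature neutrophils of control callus. These neutrophils had 4.35 and 5.26 CPM of Il18r1, so that 15.6% of thinned control callus mature neutrophils had Il18rap without Il18r1 and 0.234% had both. The highest Il18rap level of any class was that of control trabecular mast cells or basophils, 289 CPM [225, 365].

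Callus T cells had 166 CPM of Il18r1 in control and 188 CPM [165, 214] in GC, and NK cells had 141 and 184 CPM [146, 231]. Neither difference exceeded its interval. For Il18rap, NK cells had 124 CPM [92.6, 163] in 128 control cells and 230 CPM [186, 281] in 159 GC cells, with separate intervals and a fold of 1.86 [1.31, 2.65]. T cells had 140 CPM [117, 166] in control and 112 CPM [94.5, 133] in GC, which overlapped. Callus mature neutrophils, pooled over clusters, had 184 and 187 CPM of Il18rap, a fold of 1.01 [0.864, 1.19]. Trabecular mature neutrophils had 111 CPM [104, 118] in control and 177 CPM [168, 186] in GC, a fold of 1.6 [1.47, 1.74], and trabecular T cells had 31.3 CPM [15, 57.5] and 46.8 CPM [35.8, 60.1].

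**Figure D5:**
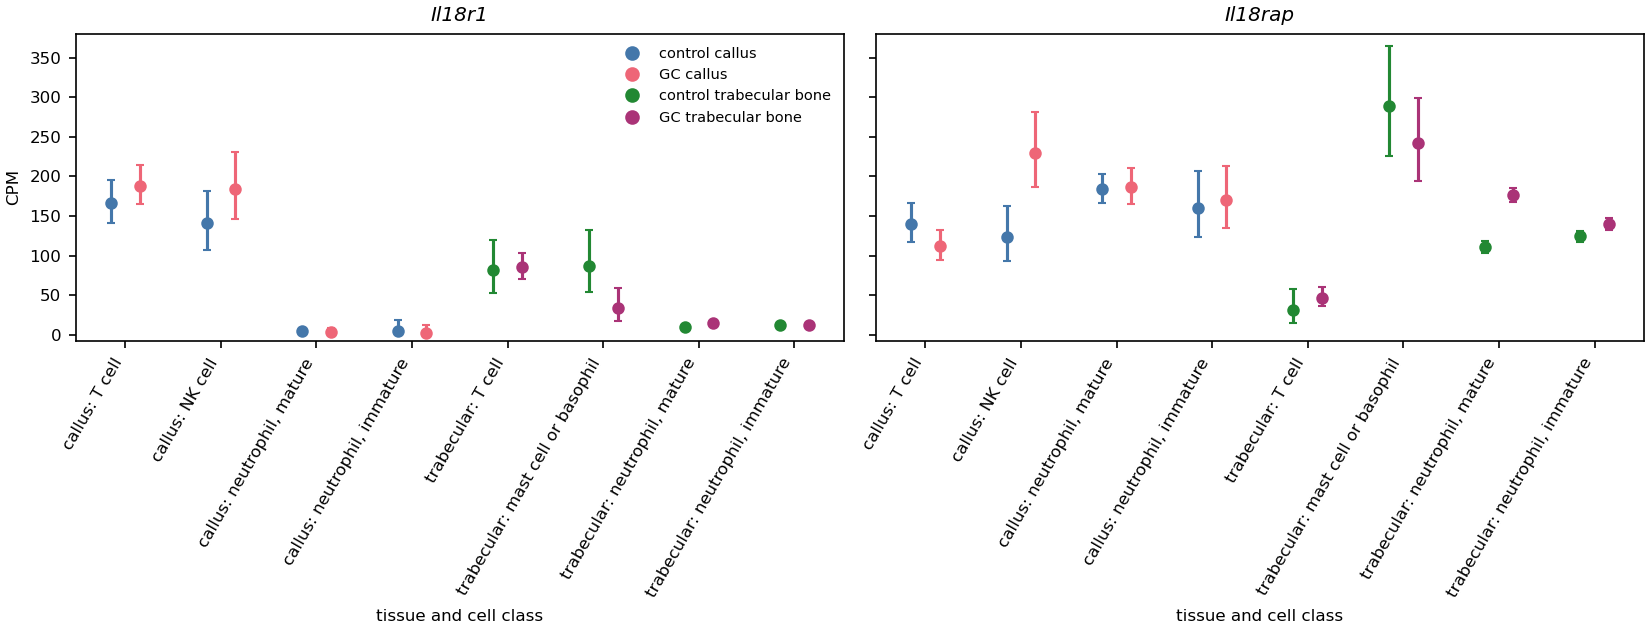
Il18r1 (left) and Il18rap (right) as CPM with exact Poisson 95% intervals (bars) in lymphocytes, neutrophils and mast cells or basophils of the 4 libraries. Neutrophils of either kind lay below 15 CPM for Il18r1 and between 111 and 187 CPM for Il18rap.

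Il1rl1 was highest in cells with mast cell or basophil genes and was also found in skeletal cells of the callus, in T cells and in erythroid cells. Trabecular mast cells or basophils had 128 CPM [86.9, 182] in control and 137 CPM [101, 181] in GC, with overlapping intervals. In callus, cluster 35, with Elane and Mpo of promyelocytes and Mcpt8 and Cpa3 of mast cells or basophils among its leading genes, had 127 CPM [95, 166] in 25 control and 98.5 CPM [72.3, 131] in 39 GC cells. Chondrocytes had 20.1 CPM [18.8, 21.4] in control and 27 CPM [25, 29.1] in GC, and hypertrophic chondrocytes 13.8 CPM [11.9, 15.9] and 30.7 CPM [27.8, 33.9]. The GC level was the higher in both, at folds of 1.34 [1.22, 1.49] and 2.23 [1.87, 2.66], but each direction turned under an alternative: the chondrocyte log2 ratio, 0.35, was -0.076 over barcodes above the UMI cutoff, and the hypertrophic one, 0.93, was -0.16 with each library clustered alone. The cutoff was applied to the control callus only, because the GC callus was deposited already called. Of the chondrocyte clusters, cluster 3, with 86 control and 1184 GC cells, had 14.3 CPM [9.13, 21.2] of Il1rl1 in control and 40.5 CPM [36.1, 45.2] in GC. Cluster 2 had 23.1 and 21.7 CPM and cluster 7 had 15.4 and 20.3 CPM, with overlapping intervals in both. Osteoblasts or osteocytes had 14.1 CPM [10.6, 18.4] in control and 24.1 CPM [20.1, 28.7] in GC, but the direction turned without cluster 17, of which 103 of 104 cells were from GC. Endothelial markers were also raised in that cluster. Stromal cells had 38.5 CPM [32.7, 45.1] in control and 10.9 CPM [7.25, 15.8] in GC, the 1 of 3 measured genes past the fold downward beside 1.09% of all genes, and 1 control cell held 41.6% of the control UMIs. Callus T cells had 33.1 CPM [22.3, 47.2] in control and 22.6 CPM [15, 32.7] in GC, from 9 of 293 and 7 of 394 cells. In trabecular T cells Il1rl1 was found in 5 of 50 control cells, at 46.9 CPM [26.3, 77.4], and in 0 of 161 GC cells, where 3 counts would be 2.3 CPM. Trabecular erythroid cells had 22.2 CPM [17.5, 27.7] in control and 13.1 CPM [9.83, 17] in GC, with separate intervals. In that class 6.04% of 6146 genes were past the fold downward and 0.146% upward. Trabecular cluster 6, led by hemoglobin genes, held 348 of the 563 GC and 100 of the 325 control erythroid cells. The part of this make-up in the Il1rl1 values was not tested.

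Between the control tissues, the callus had more Il1rn per neutrophil UMI and, in mature neutrophils, less Il1r2. The size of the Il1b difference in mature neutrophils depended on the scaling. Tissue and library cannot be told apart in this comparison. In mature neutrophils the control callus level was 1.83 [1.79, 1.87] times the control trabecular level for Il1b, 4.59 [3.7, 5.7] times for Il1a, 10.2 [9.46, 10.9] times for Il1rn and 3.05 [2.66, 3.5] times for Il1rap, and 0.406 [0.383, 0.43] times for Il1r2. For Il1b the log2 ratio was 0.87 as scaled to total UMIs, 0.24 as scaled to the median ratio, and -1.73 over all barcodes, where neutrophils are not separated from other cells. Of the 8 genes measured, 3 were past the fold upward, Il1a, Il1rn and Il1rap, and Il1r2 was past it downward. These counts stand beside 31.3% of all genes higher and 9.75% lower, with a class median log2 ratio of 0.51. Mature neutrophils had a median of 1270 UMIs per cell in control callus and 4818 in control trabecular bone, and the part of this depth in the ratios was not tested. In immature neutrophils, where the median log2 ratio was 0.07, Il1b was 1578 CPM in callus and 26.6 CPM in trabecular bone, 59.3 [51.2, 68.8] times higher, and Il1rn was 8.41 [6.64, 10.6] times higher, beside 19.3% of genes. The trabecular Il1b value lay near the 16.4 CPM of control trabecular erythroid cells, so the size of this ratio rests on a value near background. Il1r2 was not lower in callus immature neutrophils, at 297 CPM against 252 CPM in trabecular bone. The callus immature cluster had the mature neutrophil markers Retnlg, Mmp8 and Hdc among its leading genes. Of these markers, the trabecular immature clusters had only Mmp8, in cluster 0. The part of this unlike make-up in the ratios was not tested.

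Genes that act with the family were read in mature neutrophils, where Il1b was highest, and their counts stand beside 4.45% of all genes higher and 3.54% lower in the callus class and 3.24% higher and 0.73% lower in the trabecular class. Among the other family members, 1 of 11 genes had 50 UMIs in callus, Il36g, an IL-36 ligand listed under the older symbol Il1f9. It was 274 CPM in control and 505 CPM in GC callus, a fold of 1.84 [1.65, 2.06], and 245 and 207 CPM in trabecular bone, a fold of 0.845 [0.792, 0.901]. In trabecular bone Il18bp, which encodes the soluble binder of IL-18, was also measured, at 10.7 CPM in control and 25.2 CPM in GC.

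Of 10 inflammasome and processing genes, 6 were measured in callus mature neutrophils, of which 1 was past the fold upward and 0 downward, with a list median of 0.26 beside 0.00 for all genes. Casp4, an inflammatory caspase, was 15.9 CPM in control and 38.9 CPM in GC, and Aim2, a DNA sensor, was 109 and 197 CPM. Pycard, the inflammasome adaptor, was 29.9 and 24 CPM, and Ninj1, which ruptures the membrane in lytic death, was at a log2 ratio of 0.05. Nlrp3, the sensor, was 786 CPM in control and 817 CPM in GC, a fold of 1.04 [0.963, 1.12]. In trabecular bone, 9 were measured and 1 was past the fold, Pycard, at 39.9 CPM in control and 145 CPM in GC. Casp4 there was at a log2 ratio of 0.42, Casp1, which cleaves the IL-1β and IL-18 precursors, at -0.08 and Aim2 at 0.02, with a list median of 0.28 beside 0.27 for all genes.

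No measured receptor signaling gene was past the fold in either tissue. In callus mature neutrophils 14 of 17 were measured, with a list median of 0.21; the extremes were the adaptor Myd88, at 24.6 CPM in control and 41 CPM in GC, its regulator Tollip at 51.7 and 83.4 CPM, and the kinases Ikbkb at 72.9 and 46 CPM and Chuk at 28.5 and 21.9 CPM. In trabecular bone 16 were measured, with a list median of 0.19. The extremes were the kinase Irak1 at 15.3 CPM in control and 25.1 CPM in GC and the inhibitory Irak3 at 43.3 and 60.6 CPM, and Nfkb1 at 140 and 114 CPM and Irak2 at 76.8 and 65.7 CPM.

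Genes known to respond to IL-1 were split in callus mature neutrophils, with 2 of 8 measured past the fold downward, 1 upward and a list median of 0.43. Cxcl2, a neutrophil chemokine, was 17165 CPM in control and 3813 CPM in GC, and Ptgs2, the inducible prostaglandin synthase, was 493 and 162 CPM. The feedback genes stood on the other side: Tnfaip3, which limits NF-kB signaling, was 221 CPM in control and 466 CPM in GC, and Zc3h12a, which encodes an RNase that cuts cytokine mRNA, was 181 and 334 CPM. Of the response genes in trabecular mature neutrophils, 4 of 10 were past the fold upward, led by the acute-phase gene Saa3, at 0.987 CPM in control and 58.5 CPM in GC, and the chemokine Cxcl1, at 1.48 and 36 CPM. Ptgs2 was at a log2 ratio of -0.64 and Zc3h12a at 0.01 there, and the list median was 0.55. Saa3 is among the leading genes of cluster 8.

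Known glucocorticoid targets were read in the same classes, and the difference between the tissues was not tested. In trabecular mature neutrophils 4 of 7 measured were past the fold upward, beside 3.24% of all genes, with a list median of 1.70 against 0.27 for all genes, led by Klf9 at 10.6 CPM in control and 126 CPM in GC and Fkbp5, an immunophilin of the receptor complex, at 12.1 and 110 CPM, whereas Per1 and Dusp1 were at log2 ratios of 0.19 and 0.22. In callus mature neutrophils 1 of 6 was past the fold and it was downward, beside 3.54% of all genes, the phosphatase gene Dusp1 at 2996 CPM in control and 1247 CPM in GC. The clock gene Per1 was at -0.66, Fkbp5 at 0.37 and Klf9 at 0.98, with a list median of 0.06. Over all callus cells none of 7 was past the fold, beside 0.231% of 15137 genes higher and 0.297% lower.

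Several immediate early genes, which respond to tissue dissociation, were lower in GC callus, as Il1b was. In callus mature neutrophils 3 of 7 measured were past the fold downward, beside 3.54% of all genes, and 1 upward, beside 4.45%, with a list median of -0.74: Fos was 404 CPM in control and 89.8 CPM in GC, Egr1 was 1623 and 386 CPM, Junb was at a log2 ratio of -1.61, Ier2 was at -0.74 and Jun at -0.05, and Atf3 stood on the other side at 194 and 491 CPM. In monocyte cluster 6, 5 of 9 were past the fold downward, beside 2.33% of all genes, with a list median of -1.01. In trabecular mature neutrophils 1 of 7 was past the fold, Atf3 at a log2 ratio of -1.24, with Fos at -0.89, Ier2 at 0.31 and Jun at 0.69, and Fosb, at the list median, had 250 CPM in control and 249 CPM in GC. The part of dissociation in the Il1b difference was not tested.

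Across 56 points, each a cell class in a library, 8665 genes were ranked by the Pearson correlation of their log2(CPM + 5) with that of each gene above 50 CPM in some class. The points share libraries and depth, so the values are descriptive. The genes most like Il1b were Nlrp3 (r of 0.90), Cxcl2 (0.89) and Ccl6 (0.86), and those most like Il1rn were Clec4d, Slc7a11 and Ehd1 (all 0.88). Il1a was closest to Slc11a1 (0.90), Cd300ld (0.88) and Clec4n (0.88), Il1r2 to Trem1 (0.86), Cd33 (0.86) and Csf3r (0.85), and Il1rap to S100a11 (0.86), Il1f9 (0.85) and Mirt2 (0.84). Il1r1 was closest to Sash1 (0.85), Gab1 (0.84) and Pkd2 (0.84), and Il18rap to Dgat1 (0.89), Nbeal2 (0.85) and Hcst (0.81). Il1rl1 had the weakest likeness, to Cyp11a1 (0.67), Cd200r3 (0.66) and Gzmb (0.62). Clec4d, Trem1, Csf3r, Cyp11a1, Cd200r3 and Gzmb were also used to name cell classes.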

How the data were processed

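The authors deposited raw UMI count matrices (10x Genomics 3′ chemistry), and the submitters' processing notes name Cell Ranger 5.0.1, Seurat 3.2.0 and the mm10 build, while the matrix headers name cellranger 4.0.0. From these counts, barcodes were called at a false discovery rate of 0.01 (GC callus was deposited already called, with no empty droplets), and cells with under 200 genes, over 10% mitochondrial UMIs or marked as doublets, at 0.8% per 1000 cells, were left out. Cells were clustered per tissue (2000 variable genes, 30 components, 15 neighbors, Leiden resolution 1) without the 10 genes and 67 other listed genes, and clusters were named from 269 markers. UMIs were summed per class and library and given as CPM. Ratios add 5 CPM and need 50 UMIs over both libraries, intervals are exact at 95%, and shares were thinned to 1000 UMIs per cell.

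With 1 library per group no test was possible, so adjusted p-values are not given. Library totals were 95852254 UMIs in the control and 64388215 in the GC callus, and 41239842 and 45876714 in trabecular bone. The members, marker lists and gene lists were chosen with earlier results of these data known. Named genes are the 10 members, of each other list the 2 genes with the highest and the 2 with the lowest ratio in mature neutrophils, and the 3 genes most correlated with a member. Nlrp3, Junb, Ier2 in callus and Fosb were named after their values were seen. All 81 listed genes were found, 4 by an older symbol. Promoters are RefSeq sequences. Scaling, pseudocount, filters, cell calling and clustering were varied, and 4 further alternatives were chosen after seeing the data. The steps were tested on simulated data. Python 3.11.15, scanpy 1.11.5, scipy 1.17.1, pandas 2.3.3 and leidenalg 0.10.2 were used. The genes most like Il18r1 are not reported here.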

Additional observations from a re-analysis of the deposited data

Results flagged for a closer look

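Il1r2 and Il1rn differed between control and GC in opposite directions in the callus and in trabecular bone, which is why they are listed here; with 1 library per group the difference between tissues was not tested. Given as the callus log2 ratio minus the trabecular log2 ratio, Il1r2 was at -1.38 in mature neutrophils, -1.76 in immature neutrophils and -1.04 over all cells. Il1rn was at 1.24 in mature neutrophils, 0.68 in immature neutrophils and 1.25 over all cells.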

How the results depend on the processing

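No paired analysis was possible because each group was 1 library. In callus mature neutrophils, Il1b (log2 ratio -2.46) stayed past the fold under every alternative run, and read over all barcodes without cell classes it was -2.002. There, Il1rn ranged from 0.68 to 0.75 and Il1r2 from -0.84 to -0.63. Of 71 ratios, 50 had an interval that excluded 1, and 14 of those changed direction under some alternative, in 20 of 649 values. The cause was not tested. The minimum of 50 UMIs was not required again in the alternatives, and the UMI cutoff was not applied to GC callus. Depth limits Il18, and the intervals cover counting error only.

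In trabecular mature neutrophils, Il1b (main -0.21) was -0.57 with median-ratio scaling, -0.18 without hemoglobin, mitochondrial and ribosomal genes in the denominator, -0.048 as a mean per cell, -0.065 thinned, -0.24 over all barcodes, -0.93 over barcodes above the UMI cutoff, -0.30 at 500 genes, -0.14 at 5% mitochondrial UMIs, -0.17 at Leiden resolution 2 and -0.27 with each library clustered alone. With the alternatives chosen after seeing the data it was -2.45 over clusters with at least 15 cells in both libraries, which leaves out clusters 1 and 8 of nearly all GC cells and weights the rest by cell numbers that differ between libraries, and -1.25 without cluster 8. For these same 2 settings Il1a was -1.14 and -0.45, and Il1r2 was -0.019 over the shared clusters. Over all trabecular cells Il1b was 0.034 as a mean per cell and 0.022 thinned. Il1rn ranged from -1.27 to -0.44 in mature neutrophils.

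Between control tissues, Il1b (main 0.87) was 0.24 with median-ratio scaling, 0.90 without those genes in the denominator, 0.49 as a mean per cell, 0.50 thinned, 1.08 at 500 genes, 0.94 at 5% mitochondrial UMIs and 0.95 with doublets kept. Over all barcodes, where the classes are not separated, it was -1.73, with Il1a at -0.068, Il1rap at -0.96 and Il18rap at -2.27.

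The UMI cutoff was not applied to GC callus, which kept all 6890 cells. Control callus fell from 6714 to 2916 cells, 2 of them mature neutrophils. With this unequal cut, callus Il1b over all cells was 0.81, Il1r2 over all cells 1.15, chondrocyte Il1rl1 -0.076 and osteoblast Il1rl1 -0.095. T-cell Il18r1 between the control tissues, both cut, was -0.43. In osteoblasts, Il1r1 was -0.82 thinned, and Il1rl1 was -1.05 thinned, -0.24 without cluster 17 (added after seeing the data), -0.27 at 5% mitochondrial UMIs and -0.65 with each library clustered alone. The thinned osteoblast values rest on few UMIs. With libraries clustered alone, hypertrophic chondrocyte Il1rl1 was -0.16.

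Counts of genes past the fold in mature neutrophils (callus 215 higher and 171 lower, trabecular bone 231 and 52) were 110 and 74 in callus and 80 and 22 in trabecular bone at a pseudocount of 20 CPM, and 554 and 104 in trabecular bone at 1 CPM. In trabecular bone they were 101 and 117 with median-ratio scaling, 93 and 137 over shared clusters, 137 higher without cluster 8 and 122 higher above the UMI cutoff. Over all barcodes, callus had 30 and 41 and trabecular bone 54 higher. The UMI cutoff could not be applied to callus mature neutrophils, and Leiden resolution 0.5 gave no comparable mature class in trabecular bone.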
